A study of Mus musculus with 10 samples.

Results

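Caspases are the cysteine proteases that carry out apoptosis and pyroptosis, and Apaf1 is the scaffold that activates the first of them on the mitochondrial route. The values of 8 genes of this family were followed in sorted mouse retinal cells: the initiator caspases Casp2, Casp8 and Casp9, the executioner Casp6, the inflammatory caspases Casp1, Casp4 and Casp12, and Apaf1. They were chosen by symbol from 53974 rows of gene expression, and all 8 were among the 17555 genes that reached the expression needed for testing. In the table of accessible chromatin, 4 of its 16600 regions lay within 1000 bp of an end of these genes.

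The study deleted Arid1a, which encodes a part of the SWI/SNF complex that moves nucleosomes, and asked how the gene expression and chromatin of retinal ganglion cells (RGCs) respond after optic nerve crush (ONC). All mice were C57BL/6 animals aged 8 to 10 weeks that carried floxed Arid1a alleles. The group called WT (Arid1a fl/fl) received AAV2-GFP into the vitreous, and the group called cKO (Arid1a del/del) received AAV2-Cre; both viruses used the CMV promoter, which is not limited to neurons, so that WT here means floxed, injected and crushed animals without Cre. The study's methods give AAV2-GFP a higher titer than AAV2-Cre, so titer and label cannot be told apart. ONC followed 2 weeks after the injection, and retinas were taken 3 days after ONC. Before live cells were sorted with an antibody to Thy1.2, 4 to 5 retinas were pooled for each sample. RNA-seq covered 3 libraries of each group and ATAC-seq, which reads how open chromatin is to a transposase, covered 2 of each. The labels number these libraries as replicates, and the p-values below measure the spread between such pooled samples.

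The labels name the cells RGCs, and this was only partly borne out by marker genes. The RGC transcription factor Pou4f2 was listed at 0 in 5 of the 6 RNA-seq libraries, and Rbpms, another defining RGC gene, lay between 1.82 and 6.43 TPM. Other genes of the RGC list were plainly present, such as Thy1 at 51.9 to 129 TPM and Isl1 at 51.9 to 104 TPM. These say little of RGCs alone, since Thy1 is the antigen used for sorting and Isl1 was also listed as a bipolar cell marker. Gap43 (24.3 to 67.9 TPM) and Ebf1 (15.3 to 51.8 TPM) were present too. Slc17a6 (0.593 to 1.57 TPM) and Sncg (0.827 to 4.55 TPM) were low, and Pou4f1 averaged 2.03 TPM in WT and 0.781 TPM in cKO. The 17 genes of the list summed to 220 to 306 TPM in the libraries labelled WT and to 332 to 367 TPM in those labelled cKO, and of 14 tested 10 were higher, 6 of them at an unadjusted p under 0.05, and 4 lower, 0 of them at that p. TPM, the unit of the RNA-seq values, is expression per transcript length scaled to nearly the same total in every library, and it keeps no record of depth. The rod marker genes summed to 13342 to 18395 TPM in the libraries labelled WT and to 27189 to 50756 TPM in those labelled cKO. Arid1a itself was at 11.7 to 18.8 TPM in WT and 18.8 to 27.9 TPM in cKO, a difference of 0.66 on the log2 scale (limma, adjusted p = 0.274), so RNA levels did not check the deletion and directions are given by label. Correlations of log2 values across genes, which are not independent replicates, were 0.862 to 0.953 between libraries of the same label and 0.851 to 0.918 between labels.

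Caspases are made as inactive precursors. Initiators are switched on when they are brought together on a platform: Casp9 on the apoptosome built from Apaf1 and cytochrome c, Casp8 on death receptors through Fadd, and Casp2 on the PIDDosome. They then cut executioners such as Casp6, which dismantle the cell. Inflammatory caspases act in another program: Casp1 on inflammasomes and Casp4 on cytosolic lipopolysaccharide cut gasdermin D, and Casp1 matures interleukins of the Il1 family. Apoptosis is the best known way in which RGCs die after the optic nerve is injured, whereas Casp1, Casp4 and Casp8 are well known from leukocytes.

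The start sites of the members fell into a group of high and a group of low GC content, and the sequences of 5 of them are shown because the chromatin and RNA values below divide in the same way. Each window covers 250 bases before and 50 bases after the RefSeq start site on GRCm38.p6 and is written in the direction of transcription, with matches to the searched motifs in capitals. Apaf1 (chr10:91082694-91082993, minus strand) and Casp9 (chr4:141793362-141793661, plus strand) stand for the GC-rich starts. Casp8 (chr1:58802252-58802551), Casp1 (chr9:5298267-5298566) and Casp12 (chr9:5345226-5345525), all on the plus strand, stand for the others.
Apaf1: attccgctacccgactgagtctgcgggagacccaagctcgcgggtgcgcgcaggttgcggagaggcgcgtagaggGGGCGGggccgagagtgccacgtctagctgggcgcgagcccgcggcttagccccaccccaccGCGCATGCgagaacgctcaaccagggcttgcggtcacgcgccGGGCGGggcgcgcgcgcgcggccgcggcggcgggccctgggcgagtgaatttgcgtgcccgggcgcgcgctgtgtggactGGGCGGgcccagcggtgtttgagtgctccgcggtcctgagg
Casp9: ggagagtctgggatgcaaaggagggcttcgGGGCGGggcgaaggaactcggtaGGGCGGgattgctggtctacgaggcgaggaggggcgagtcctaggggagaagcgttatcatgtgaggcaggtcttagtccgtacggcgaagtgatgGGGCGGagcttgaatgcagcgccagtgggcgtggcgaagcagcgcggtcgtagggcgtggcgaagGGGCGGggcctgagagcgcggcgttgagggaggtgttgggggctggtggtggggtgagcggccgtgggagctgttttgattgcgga
Casp8: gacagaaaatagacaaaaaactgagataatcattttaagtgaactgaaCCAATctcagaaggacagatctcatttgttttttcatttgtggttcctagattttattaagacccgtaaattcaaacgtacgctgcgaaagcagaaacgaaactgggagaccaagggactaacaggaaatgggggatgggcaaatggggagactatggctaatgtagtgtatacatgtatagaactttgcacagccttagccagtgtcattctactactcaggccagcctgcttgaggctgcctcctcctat
Casp1: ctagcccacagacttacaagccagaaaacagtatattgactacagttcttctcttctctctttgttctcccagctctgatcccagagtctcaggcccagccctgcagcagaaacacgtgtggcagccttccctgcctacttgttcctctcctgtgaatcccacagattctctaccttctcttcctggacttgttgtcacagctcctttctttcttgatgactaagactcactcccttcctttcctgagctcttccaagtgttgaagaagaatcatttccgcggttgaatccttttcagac
Casp12: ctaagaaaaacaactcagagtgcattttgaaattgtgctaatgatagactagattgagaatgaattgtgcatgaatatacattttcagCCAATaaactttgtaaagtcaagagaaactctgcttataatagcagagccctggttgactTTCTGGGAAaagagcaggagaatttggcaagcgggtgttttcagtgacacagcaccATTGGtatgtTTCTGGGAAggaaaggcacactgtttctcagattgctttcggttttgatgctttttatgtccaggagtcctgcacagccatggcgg

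Capitals mark a GC box (GGGCGG), an NRF1 site (GCGCATGC), a CCAAT box (CCAAT) or a GAS element (TTCNNNGAA), each searched on both strands, and no match overlapped another motif's. GC content was 74.7% in the Apaf1 window, 66% in Casp9, 63.7% in Casp2 and 62% in Casp6, with 46, 28, 26 and 16 CpG dinucleotides. It was 48% in Casp1, 42% in Casp8, 42% in Casp4 and 41% in Casp12, with 3, 5, 5 and 3 CpG dinucleotides. The median of all 32851 windows was 52.7% with 7 CpG, so the first 4 starts lay above it and the last 4 below. Windows of tested genes had higher medians: 62.3% with 23 CpG for genes with an ATAC-seq region at an end and 57.3% with 14 CpG for genes without one. Beside the first of these medians, Casp6 lay slightly below and Casp2 close by, so such a GC content is common in tested genes with a region. The last 4 starts lay below the median of genes without a region. For Casp4 the first of its listed start sites is given, and the window of the other had 41.7% GC. The Casp8 window surrounds a start site at 58802502, inside the gene. The chromatin regions of Casp8 were sought at the ends of the gene, which begins at 58795233, so its window and its gene end are different places.

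GC boxes followed the same division. Casp9 held 4, Apaf1 3, Casp6 3 and Casp2 2, and the windows of Casp1, Casp4, Casp8 and Casp12 held none. Of all windows, 35.7% held a GC box, and among tested genes the share was 70.5% for genes with an ATAC-seq region at an end and 49.8% for genes without one. The NRF1 letters were found in the Apaf1 window and in 2.71% of all windows. CCAAT boxes were found in Casp2 (2 matches), Casp12 (2) and Casp8 (1) and in 37.4% of all windows. Casp12 also held the GAS letters 2 times, both as TTCTGGGAA, starting at positions -102 and -36 from the start site, in a sequence class found in 8.3% of all windows. No member's window held the ETS core spelled CCGGAAG or the E2F site spelled TTTNGCGC. The CRE letters TGACGTCA and the AP-1 letters TGANTCA were also in none of them. The same held for the ISRE core GAAANNGAA and for the TATA box, searched for as TATAAA. The shares of all windows with these 6 motifs ran from 1.38% for E2F to 13.6% for the TATA box. These matches describe the letters in the windows and say nothing of binding.

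RNA levels of the members divided into a group that was lower in cKO and a group that differed little. Casp8, Casp1, Casp4 and Casp12 were each lower by similar factors in the libraries labelled cKO, whereas Casp2, Casp9 and Apaf1 overlapped between the groups and Casp6 differed by less. The 8 members summed to 169.5, 141 and 194 TPM in the WT replicates 1, 2 and 3 and to 89.9, 72.6 and 103 TPM in cKO. The sum of Casp1, Casp4, Casp8 and Casp12 was 107 ± 26.8 TPM (SD, n = 3) in WT and 35.3 ± 12.4 TPM (SD, n = 3) in cKO. The sum of Apaf1, Casp2, Casp6 and Casp9 was 61.1 ± 8.69 TPM (SD, n = 3) in WT and 53.3 ± 3.77 TPM (SD, n = 3) in cKO. Both sets follow the RNA differences themselves, so these sums describe the division and do not test it.

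Differences were tested gene by gene with limma on log2(TPM + 1), over all 17555 genes, a scale on which differences of genes with few TPM come out too small. No member passed an adjusted p of 0.05, and nor did any other gene lower in cKO (0%); 1 gene (0.0057%) passed in the other direction. With an unadjusted p under 0.05, 4 of the 8 members were lower and 0 were higher, beside 6.45% of all genes lower and 11.9% higher. Without WT replicate 1, or without WT replicate 3, 2 members were lower at that p. For 5 of the 8 members every cKO library lay below every WT library, beside 7.18% of all genes, and for 0 members every one lay above, beside 18.7%. All 8 members had a negative log2 fold change, with a median of -0.76, where the median of all genes tested was 0.16. Scaling the libraries by the median of ratios moved the median of all genes to 0.01 and that of the members to -0.89, and it turned the split of all genes at an unadjusted p under 0.05 from 1133 lower and 2095 higher to 1675 lower and 1338 higher. In exact two-sided permutation tests the 5 members without overlap had p = 0.1, the smallest value that 3 against 3 libraries allow.

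**Figure D1:**
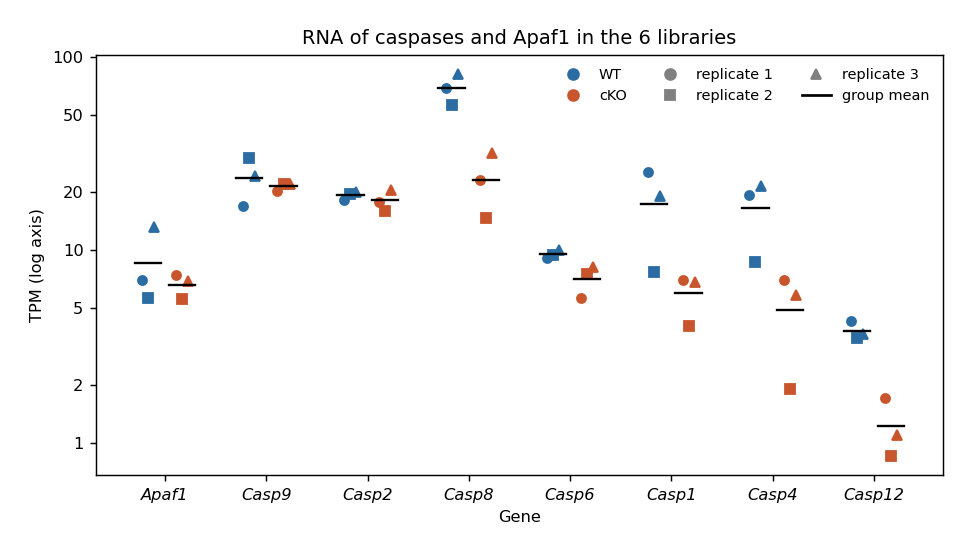
TPM of each member (log axis) in the 3 WT and 3 cKO RNA-seq libraries, with colour for the group, shape for the replicate and a bar at the group mean. The groups do not overlap for Casp8, Casp1, Casp4, Casp12 and Casp6, and they do for Casp2, Casp9 and Apaf1.

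Casp8, the initiator of the death receptor route, was the most abundant member in WT. Casp8 was at 69.2, 56.4 and 82.0 TPM in WT replicates 1, 2 and 3 and at 23.1, 14.6 and 31.8 TPM in the cKO replicates. Every cKO library lay below the lowest WT library, and replicate 2 was the lowest of both groups. The means were 69.2 ± 12.8 and 23.2 ± 8.57 TPM (SD, n = 3), a 2.99-fold difference. For Casp8 limma gave a log2 fold change of -1.59 ± 0.32 (standard error), with an unadjusted p of 0.00162 and an adjusted p of 0.124, and 2.45% of all genes tested had a lower one. Leaving out any single library gave values from -1.84 to -1.31, with an unadjusted p of at most 0.00807.

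The makeup of the family moved with Casp8. Casp8 made up 41.1% ± 1.18 (SD, n = 3) of the summed TPM of the members in WT and 25.5% ± 5.31 (SD, n = 3) in cKO. The ratio of Casp8 to Casp9, the initiators of the death receptor and mitochondrial routes, was 4.10, 1.87 and 3.38 in WT and 1.143, 0.663 and 1.45 in cKO. In each WT library Casp8 exceeded Casp9, and in cKO replicate 2 it did not.

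Casp9, which the apoptosome activates, was at 16.9, 30.1 and 24.2 TPM in WT and at 20.2, 22.0 and 22.0 TPM in cKO. The WT libraries spread on both sides of the cKO libraries. On the log2 scale Casp9 differed by -0.11, with a 95% confidence interval from -0.75 to 0.53 (limma, adjusted p = 0.859), and without WT replicate 2 it was 0.07. Its partner Apaf1 was at 6.99, 5.67 and 13.2 TPM in WT and at 7.405, 5.56 and 6.93 TPM in cKO. WT replicate 3 stood above the other libraries, which overlapped. The log2 fold change of Apaf1 was -0.26, with an interval from -1.09 to 0.57 (adjusted p = 0.722), and without WT replicate 3 it was 0.06. Casp2, the caspase of the PIDDosome, was the steadiest member, at 18.2, 19.5 and 20.0 TPM in WT and 17.8, 16.0 and 20.6 TPM in cKO. Its log2 fold change was -0.09, with an interval from -0.62 to 0.44 (adjusted p = 0.862). The intervals leave room for differences of moderate size in either direction for these 3 genes.

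Casp6, an executioner that cuts nuclear lamins and has been studied in axon degeneration, was at 9.11, 9.49 and 9.98 TPM in WT and at 5.69, 7.56 and 8.17 TPM in cKO. The groups did not overlap, but the gap between them was narrow. The means were 9.53 ± 0.438 and 7.14 ± 1.29 TPM (SD, n = 3). This came to -0.38 ± 0.26 (standard error) on the log2 scale for Casp6, with an unadjusted p of 0.182 and an adjusted p of 0.468 by limma.

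The inflammatory caspases were lower together. Their summed TPM was 49.0, 19.9 and 44.3 in WT and 15.7, 6.83 and 13.8 in cKO, and replicate 2 was the lowest in both groups. Casp1, the inflammasome caspase, was at 25.4, 7.70 and 19.0 TPM in WT and at 7.01, 4.06 and 6.87 TPM in cKO. WT replicate 2 came close to the highest cKO library without overlapping it. The means of Casp1 differed 2.91-fold, and limma put the log2 fold change at -1.28 ± 0.46 (standard error) with an unadjusted p of 0.0265 and an adjusted p of 0.212. That unadjusted p was 0.0908 without WT replicate 1, 0.0779 without WT replicate 3 and 0.0860 without cKO replicate 2.

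Casp4, the sensor of cytosolic lipopolysaccharide, had a log2 fold change close to that of Casp8. It was at 19.3, 8.72 and 21.6 TPM in WT and at 6.98, 1.91 and 5.86 TPM in cKO. The groups did not overlap, and replicate 2 was again the lowest of each. The means differed 3.37-fold, and by limma Casp4 had a log2 fold change of -1.60 ± 0.50 (standard error) with an unadjusted p of 0.0152 and an adjusted p of 0.178. Without WT replicate 1 the unadjusted p was 0.0542, and without WT replicate 3 it was 0.0527.

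Casp12, which has been linked to endoplasmic reticulum stress and sits in the same gene cluster, was the least abundant member. It was at 4.30, 3.52 and 3.67 TPM in WT and at 1.72, 0.862 and 1.11 TPM in cKO. The WT libraries lay close together and all above the cKO libraries. The means were 3.83 ± 0.412 and 1.23 ± 0.441 TPM (SD, n = 3), a 3.11-fold difference. By limma the difference of Casp12 was -1.13 ± 0.28 (standard error) on the log2 scale, with an unadjusted p of 0.00498 and an adjusted p of 0.137, and the unadjusted p stayed at or below 0.0253 in all fits that left out a single library.

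**Figure D2:**
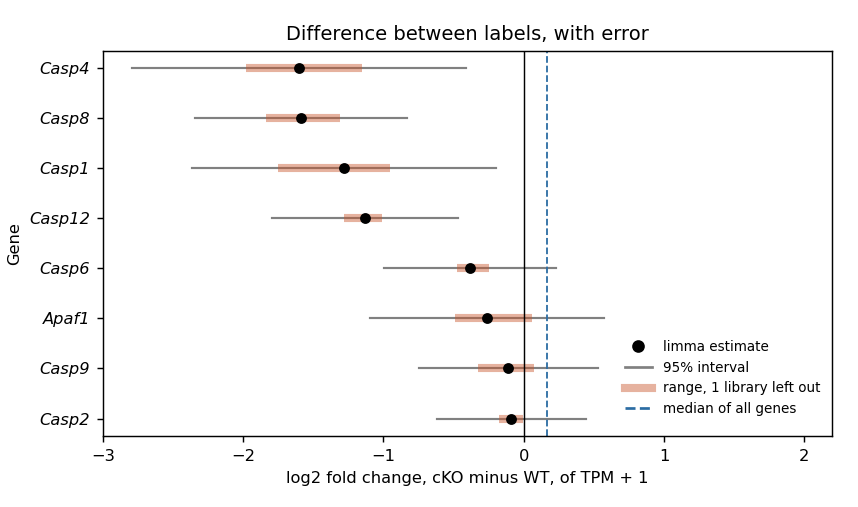
Log2 fold change (cKO minus WT) of each member on the log2(TPM + 1) scale (points), with 95% confidence intervals (thin lines) and the range over the fits that leave out a single library (thick bars); the dashed line is the median of all genes, 0.16. Casp4, Casp8, Casp1 and Casp12 lie between -1.60 and -1.13 with intervals below 0, and the intervals of the other 4 members cross 0.

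The order of the members also differed between the groups. In WT the means ran from Casp8 through Casp9, Casp2, Casp1, Casp4, Casp6 and Apaf1 to Casp12, and neighbours in this order had ranges that did not overlap only at Casp8 against Casp9 and at Apaf1 against Casp12. In cKO the order was Casp8, Casp9, Casp2, Casp6, Apaf1, Casp1, Casp4 and Casp12, with no overlap between neighbours only at Casp2 against Casp6 and at Casp4 against Casp12. Casp1 and Casp4 thus stood above Casp6 in WT and below it in cKO by their means.

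Markers of several other cell types differed between the same libraries, leukocyte markers among them. Thy1 is carried by T cells as well as by RGCs. The 14 T cell markers summed to 734 to 2085 TPM in WT and to 186 to 460 TPM in cKO. Of these, 14 of 14 were lower, 12 of them at an unadjusted p under 0.05, and none was at 0. The 17 myeloid markers summed to 2467 to 3983 TPM in WT and to 1108 to 1552 TPM in cKO. Of these, 16 of 17 were lower, 6 of them at an unadjusted p under 0.05, and none was at 0. The B cell markers summed to 84.2 to 245 TPM in WT and to 39.1 to 57.5 TPM in cKO, with 7 of 7 tested markers lower, 4 of them at an unadjusted p under 0.05, and Pax5 at 0 in some libraries. Markers of Mueller glia and astrocytes were lower in 11 of 11 tested, 3 of them at an unadjusted p under 0.05, with sums of 12317 to 22489 TPM in WT and 8063 to 19611 TPM in cKO, and those of endothelial cells and pericytes were lower in 7 of 8, 1 of them at that p. Cone markers were higher in 9 of 9, 7 of them at that p, and amacrine markers in 9 of 10, 3 of them at that p. The part of these cells in the values of the caspases was not tested. In pooled sorted cells, fewer cells of a type and less RNA per cell cannot be told apart.

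Casp1 stood in the same order over the libraries of each group as the T cell sum. As a percentage of the WT mean, Casp1 was at 146, 44.3 and 110% in WT and at 40.4, 23.3 and 39.5% in cKO, and the T cell sum was at 139, 48.8 and 112% and at 30.6, 12.4 and 28.4%. Per 1000 TPM of T cell markers, Casp1 was 11.3 ± 0.849 TPM (SD, n = 3) in WT and 17.7 ± 3.58 TPM (SD, n = 3) in cKO, and Casp4 was 11.3 ± 1.83 and 13.1 ± 2.50 TPM. Per 1000 TPM of myeloid markers, Casp1 was 5.33 ± 2.53 and 4.71 ± 1.41 TPM, and Casp4 was 5.04 ± 1.35 and 3.80 ± 1.94 TPM. Per 1000 TPM of B cell markers, Casp1 was 102 ± 10.3 and 126 ± 54.6 TPM, and Casp4 was 103 ± 24.0 and 107 ± 72.8 TPM. As a percentage of the WT mean, Casp4 was at 117, 52.7 and 131% in WT and at 42.2, 11.6 and 35.4% in cKO. Casp8 was at 99.99, 81.5 and 118% in WT and at 33.3, 21.1 and 45.9% in cKO, and the myeloid sum was at 98.3, 77.1 and 125% and at 48.5, 37.3 and 34.6%. In WT the order of Casp4 and of Casp8 over the replicates was that of the myeloid sum, and in cKO it was not, where Casp4 had the order of the T cell sum. Casp12 in WT, at 112, 91.9 and 95.9%, varied less than the T cell or the myeloid sum. The B cell sum, at 147, 50.6 and 102% in WT, shared the WT order of Casp1 and the T cell sum. An order of 3 libraries is easily shared by unrelated genes, so these matches do not single out a cell type and were not tested.

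**Figure D3:**
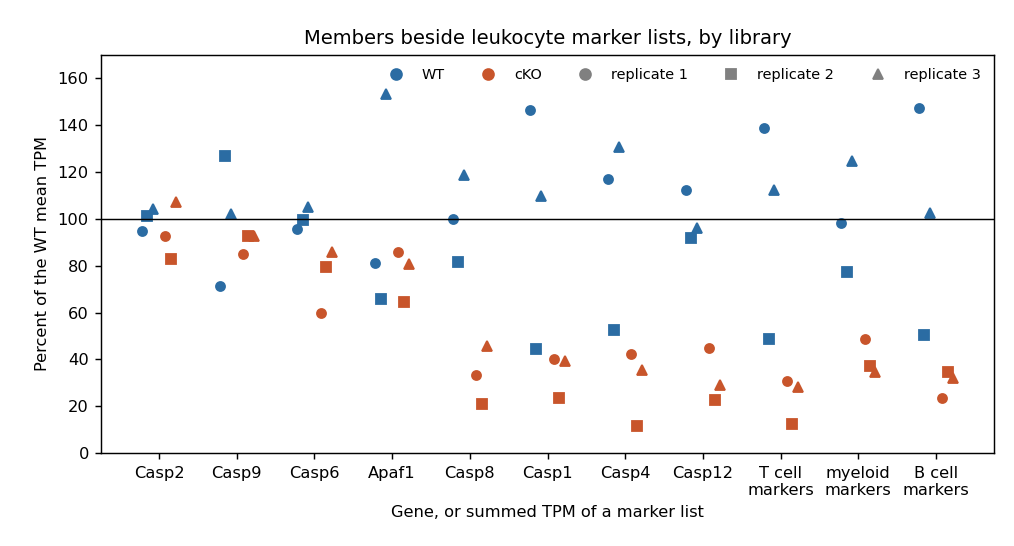
Each member, and the summed TPM of T cell, myeloid and B cell markers, in each RNA-seq library as a percentage of the mean of the 3 WT libraries (colour: group, shape: replicate). Casp8, Casp1, Casp4 and Casp12 lie below 50% in every cKO library, as do the 3 marker sums.

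The genes whose profiles over the 6 libraries lay nearest to each member were found by the root mean square distance of centred log2(TPM + 1) values, without predicted genes. Nearest to Casp1 were Art2b (0.0733) and Cd96 (0.0794), both known from T cells, and nearest to Casp4 were Il21r (0.0913) and Cxcr5 (0.124), receptors of lymphocytes. For Casp8 they were Nfkb2 (0.122) and Samd9l (0.136), and for Casp12 Gapt (0.101) and Tmem134 (0.106). For Casp9 they were Fbxo22 (0.0388) and Ubn1 (0.0406), for Casp2 Prr14 (0.0400) and Saraf (0.0478), for Casp6 Leprot (0.0814) and Abhd15 (0.0833), and for Apaf1 Slc7a1 (0.111) and Tpm2 (0.120). Small distances are easily reached by members that vary little, such as Casp2.

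Among the genes that work with the members, the death receptor group was lower on the whole. Of its 10 tested genes 9 were lower, 4 at an unadjusted p under 0.05, beside 6.45% of all genes lower at that p. Their median log2 fold change was -0.66 beside 0.16 for all genes. Fas, the death receptor upstream of Casp8, was at 10.7, 7.86 and 10.99 TPM in WT and at 4.04, 2.71 and 3.77 TPM in cKO. No cKO library of Fas reached the WT range, and limma gave -1.27 ± 0.28 (standard error) on the log2 scale with an adjusted p of 0.124. The adaptor Tradd (log2 fold change -0.91, adjusted p = 0.234) and Tnfaip8, which restrains death receptor signals (-0.61, adjusted p = 0.262), also had groups that did not overlap. Fadd, which binds Casp8 to Fas, averaged 7.95 ± 2.32 TPM in WT and 5.97 ± 0.680 TPM in cKO (SD, n = 3), and Cflar, the inhibitor that competes with Casp8, averaged 81.1 ± 10.3 and 74.1 ± 7.53 TPM. Fadd and Cflar had intervals that included 0, from -1.02 to 0.35 and from -0.61 to 0.36 on the log2 scale. Fadd and Cflar lie outside the rule by which partner genes were named and were chosen after their values were seen.

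Inflammasome and pyroptosis genes, partners of Casp1 and Casp4, were more mixed. Of 11 tested genes 9 were lower and 2 higher, with a median log2 fold change of -0.51. An unadjusted p under 0.05 was reached by 3 lower genes and 1 higher gene, beside 6.45% lower and 11.9% higher of all genes. Gsdmd, the pore former that Casp1 and Casp4 cut, was at 71.0, 37.2 and 78.1 TPM in WT and at 27.0, 12.2 and 30.2 TPM in cKO. Its groups did not overlap and its replicate 2 was the lowest in both, as for Casp1 and Casp4. Gsdmd differed by -1.41 ± 0.43 (standard error) on the log2 scale, with an adjusted p of 0.170 by limma. Mefv, which encodes the inflammasome sensor pyrin, was also lower at -0.73 (adjusted p = 0.270), and the receptor gene Il1r1 was higher at 0.63 (adjusted p = 0.255). Of the list's 16 genes 5 were too low to be tested, among them Nlrp3 and Nlrc4, the sensors of well known inflammasomes, which were named after their values were seen.

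On the mitochondrial route, the list of apoptosome and inhibitor-of-apoptosis genes had 7 lower and 5 higher of 12 tested and a median log2 fold change of -0.10. At an unadjusted p under 0.05 there was 1 in each direction, beside 6.45% lower and 11.9% higher of all genes. Xiap, an inhibitor of Casp9, was at 25.9, 20.5 and 35.5 TPM in WT and at 39.4, 53.2 and 59.1 TPM in cKO. Every cKO library lay above every WT library, as for 18.7% of all genes. Xiap differed by 0.88 ± 0.28 (standard error) on the log2 scale, with an adjusted p of 0.183 by limma. The PIDDosome genes Pidd1 and Cradd, the whole list of Casp2 partners, had log2 fold changes of 0.32 and -0.36, and 0 of 2 had an unadjusted p under 0.05.

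Of the 16 executioners and substrates, 6 were lower and 10 higher, beside 6822 lower and 10733 higher of all 17555 genes. An unadjusted p under 0.05 was reached by 0 of the lower and 2 of the higher genes. Over all genes the shares at that p were 6.45% lower and 11.9% higher, so this list differed little from all genes. Gsdme, a gasdermin that is cut during apoptosis, was at 29.9, 24.6 and 32.4 TPM in WT and at 65.7, 63.9 and 48.0 TPM in cKO. The groups were well apart, 1.00 ± 0.23 (standard error) on the log2 scale, with an adjusted p of 0.125 by limma. Xkr8, the scramblase that caspases switch on, was higher by 0.68 (adjusted p = 0.248).

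In ATAC-seq, the 4 members with GC-rich starts each had a region, and all 4 regions had lower read values in cKO. The values used are the authors' means of normalized reads per group on a log2 scale; they come without a value per library, so no error is given, and the differences were not tested here. The region of Casp2 (chr6:42264647-42265409) lay across its start, was shared with Tmem139, and went from 92.4 reads in WT to 7.89 in cKO, a log2 difference of -3.55. The region of Apaf1 (chr10:91082443-91083161), shared with its neighbour Ikbip, went from 63.6 to 6.87 reads, a difference of -3.21. The region of Casp9 (chr4:141793056-141794041) went from 56.9 to 7.01 reads, a difference of -3.02. The region of Casp6 (chr3:129901268-129901766), shared with Gm46825, was the smallest in WT and went from 15.1 to 2.07 reads, a difference of -2.87. Each region covered the annotated start site.

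Most other gene ends had lower values too. Of 6965 regions within 1000 bp of an end of a tested gene, 93.1% were at least 2-fold lower in cKO and 71.8% at least 4-fold lower, as were 4 of 4 member regions in both counts. The median difference of the 6965 regions was -2.58 and that of the members -3.12. Over all 16600 regions the shares were 59.8% and 40.7%, and the median difference was -1.57. Relative to that median of all regions the member regions were 3.94-fold (Casp2), 3.12-fold (Apaf1), 2.73-fold (Casp9) and 2.46-fold (Casp6) lower. They were less apart from the regions at gene ends. Of those, 17.4% had a lower difference than Casp2, 26.9% than Apaf1, 32.9% than Casp9 and 38.2% than Casp6.

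**Figure D4:**
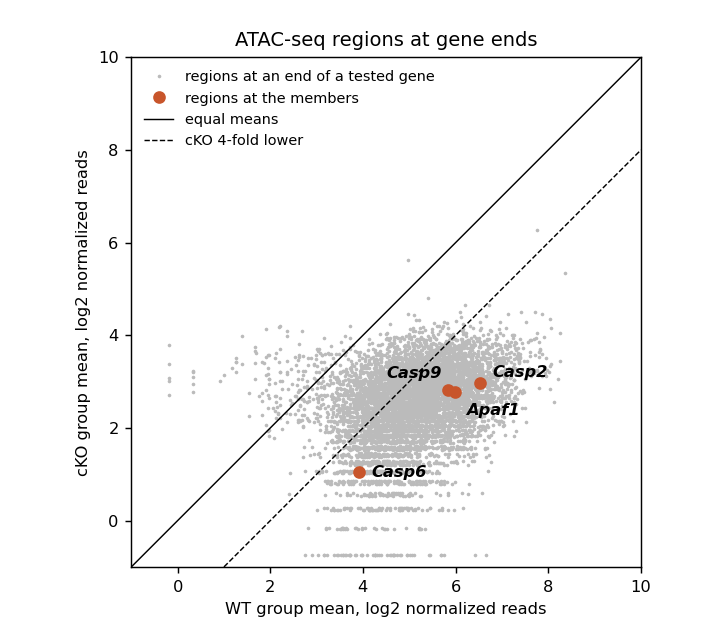
The authors' group means of normalized ATAC-seq reads (log2), WT on the x axis and cKO on the y axis, for the regions at an end of a tested gene (grey) and the 4 regions at members (orange), with lines at equal means and at 4-fold lower in cKO. The 4 member regions lie below the 4-fold line, as do 71.8% of the 6965 regions at gene ends.

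A further region inside Casp9 went the other way. It lay 9800 bp into the gene (chr4:141803110-141803715), outside the 1000 bp rule. Its value went from 1.257 reads in WT to 9.78 in cKO, a log2 difference of 2.96. Both cKO libraries had a peak there while the WT libraries had none. The read values were low and the difference was not tested. Over all 16600 regions the upper quartile of the difference was -0.13. The region nearest upstream of Casp9, at the end of the neighbouring Dnajc16, went from 52.3 to 10.3 reads.

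Casp8, Casp1, Casp4 and Casp12 had no region within 1000 bp of an end. A region was present for 4 of the 8 members (50%), beside 51.5% of all tested genes with a position. At an unadjusted p under 0.05, RNA was lower in cKO for 0 of the 4 members with a region and for 4 of the 4 without. Over all genes the shares were 3.85% with and 10.5% without a region. The median RNA log2 fold change was -0.19 for the members with a region and -1.44 for those without, beside 0.16 and 0.09 over all genes.

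The peaks called in single libraries, 42265 to 76522 per library, gave the same picture for WT. Apaf1, Casp2, Casp6 and Casp9 had a peak at an end in both WT libraries, beside 65.1% and 58.2% of all genes. In cKO replicate 1 the genes with a peak at an end were Casp2 and Casp8, beside 13.6% of all genes, and in cKO replicate 2 they were Casp2 and Casp4, beside 13.9%. Those peaks of Casp8 and Casp4 did not lie on the start windows shown above or searched for motifs, and that of Casp4 lay beyond the far end of the gene. Casp2 was the member with a peak at an end in all 4 libraries, though in cKO replicate 1 the peak began 556 bp into the gene. A cKO replicate 2 peak also lay across the Casp8 start site used above, from 194 bp before it to 46 bp after; this site lies downstream of the gene's annotated boundary and so was not counted among the ends. Casp1, Casp4 and Casp12 lie next to each other on chromosome 9, from 5298517 to 5373034, with 1567 bp between the first pair and 8650 bp between the second. In these 74518 bp there were 6, 1, 1 and 2 peaks in WT replicates 1 and 2 and cKO replicates 1 and 2, and none in Casp1 itself.

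**Figure D5:**
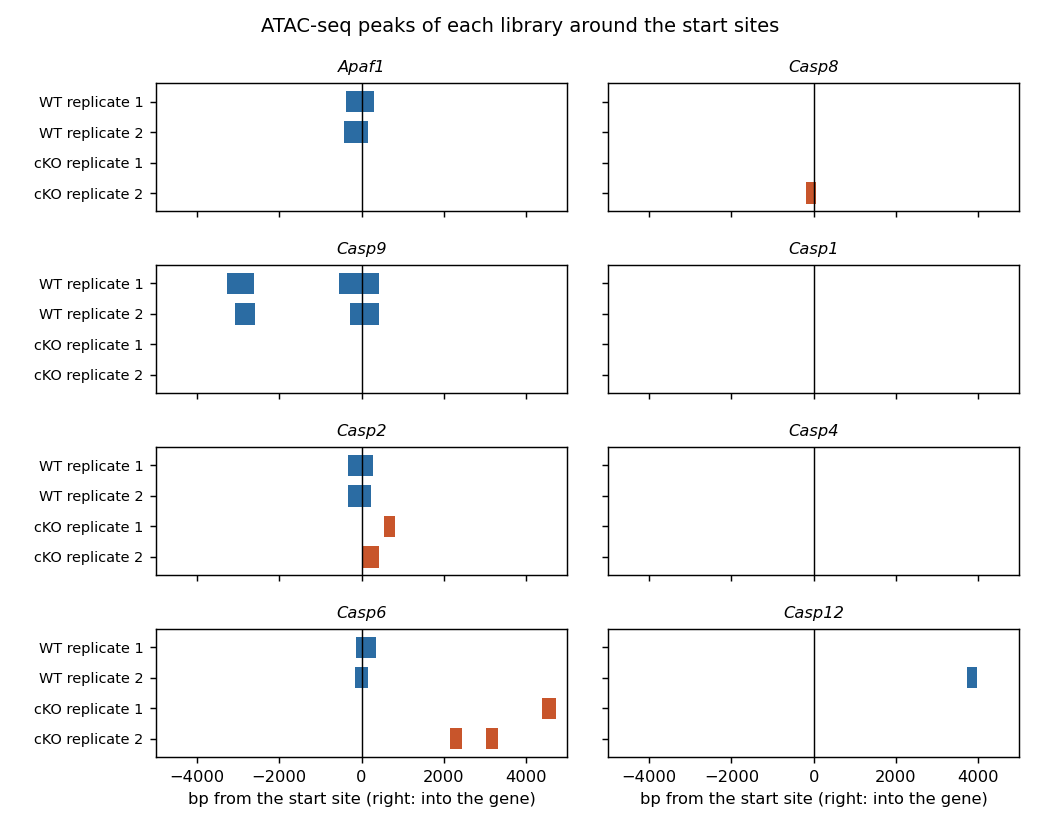
Peaks called in each of the 4 ATAC-seq libraries (rows) around the start site of each member (panels); the x axis gives bp from the start site, with positive values into the gene. Apaf1, Casp9, Casp2 and Casp6 have a peak across the start in both WT libraries, and Casp8, Casp1, Casp4 and Casp12 have none there in WT.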

How the data were processed

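RNA-seq and ATAC-seq were made from Thy1.2-sorted retinal cells. Per the study's methods, the authors trimmed the RNA-seq reads with Trimmomatic, quantified GENCODE transcripts with Salmon (version 1.0.0), brought them to gene level with tximport, and deposited a TPM value per gene and library. For ATAC-seq, the submitters' processing notes name Bowtie2 (2.3.5.1) and MACS2 (2.2.5) on GRCm38; the authors deposited peak positions per library and, from DiffBind, log2 mean normalized reads per group. The RNA-seq table of the authors' own comparison (DESeq2 fold changes and p-values) and the fold, p-value and FDR columns of the ATAC-seq table were not used. Depth is not given, so no counting interval can be stated, and the number of libraries limits the precision.

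Genes with at least 1 TPM in at least 3 libraries were kept. log2(TPM + 1) was compared with limma 3.58.1 in R 4.3.3 (variance moderated along a mean trend) and p-values were adjusted by Benjamini-Hochberg over all genes tested, at a threshold of 0.05; the fit was tested on simulated data. Groups were taken from the sample labels. Same-numbered WT and cKO libraries deviated together from their group means (r across genes of 0.334, 0.101 and 0.425), a hint from the data that the numbers pair the samples, since no label says so, although cKO replicate 2 correlated better with WT replicate 1 (0.193); the replicate number was therefore tried as a block. Other alternatives were a pseudocount of 0.1, no filter, a minimum mean TPM of 5, library scaling by median of ratios, no trend, leaving out each library, 3000 bp in place of 1000 bp, a 4-fold in place of a 2-fold difference, differences relative to the median region, and at least 50% of a peak inside the window.

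Gene positions and promoter windows are from RefSeq on GRCm38.p6; all 8 members matched. The gene table has no strand, so either end of a gene counted. Members, lists and tests were chosen with earlier results of these data known. Named are all members, the partner genes of each list with an unadjusted p under 0.05 and no overlap between groups (at most 4 with the largest change), the 2 genes nearest in profile to each member, and some genes marked in the text as picked later. The values of some listed genes are not reported here. Other computations used Python 3.11.15, numpy 2.4.6, pandas 2.3.3 and scipy 1.17.1, with figures from matplotlib 3.10.9.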

Additional observations from a re-analysis of the deposited data

How the results depend on the processing

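No member passed an adjusted p of 0.05 in limma under any alternative run (4 members at an unadjusted p under 0.05 as reported); the lowest adjusted p was 0.0633, for Casp8 with the replicate number as a block. The block left the count of members lower at an unadjusted p under 0.05 at 4 and changed no other call. In fits without a single library that count ranged from 2 to 4: it was 2 without WT replicate 1 and 2 without WT replicate 3, where Casp1 and Casp4 lost an unadjusted p under 0.05. In the same fits the log2 fold change of Apaf1 ranged from -0.49 to 0.057 and that of Casp9 from -0.32 to 0.075, changing sign without WT replicate 3 and without WT replicate 2; neither differed between the groups as reported. Casp12 was not tested with a mean TPM of at least 5. With 3000 bp around gene ends, cKO replicate 2 had a peak at 4 members in place of 2. The cause of these shifts was not tested. For the ATAC-seq regions no paired fit exists, since only group means are given. Without depth, low levels such as those of Casp12 carry an unknown counting error.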
